A study of Mus musculus with 2 samples.

Results

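The genes described here encode the writers, erasers and readers of chromatin marks in mouse 4T1 mammary carcinoma cells: lysine demethylases, histone deacetylases and sirtuins, DNA methyltransferases and TET dioxygenases, Polycomb and HP1 proteins, H3K9 methyltransferases, SETD proteins, acetyltransferases and the SWI/SNF ATPases. They were chosen by their gene names on the array and not by a limit on their measured values, though earlier results of these data were known. This gave 76 genes with 123 probes in 141 spots, of 22290 genes named in the reference table and 55681 probes in all. 4T1 is an established line from a BALB/c mouse that grows as a triple-negative breast cancer model. The cells were cultured without treatment and sorted with the ALDEFLUOR kit, in which cells that use aldehyde dehydrogenase (ALDH) keep a fluorescent product, into cells of high activity, called ALDH-positive and labelled cancer stem cell, and cells of low activity, called ALDH-negative and labelled anti cancer stem cell. Total RNA of each population was hybridized, in 1 colour, to 1 Agilent array of 60-base probes. Each population had 1 array, so no difference below has a replicate check, and none was tested.

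Chromatin modifiers set how accessible a gene is by adding or removing methyl and acetyl groups on histone tails and on cytosines in DNA. Methylation of H3K27 by Polycomb repressive complex 2 (PRC2) and of H3K9 by the SUV39H and EHMT enzymes is linked to silent genes, methylation of H3K4 and H3K36 and histone acetylation to active ones, and demethylases and deacetylases reverse these marks. In breast cancer, several of these enzymes have been studied for their part in the shift between stem-like and differentiated tumor cells.

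Of the 76 chromatin modifier genes, 74 were measured, that is, had a probe well above background on at least 1 array, and 72 of these were so on both arrays with their brightest probe, which stood for the gene. *Kdm4d*, an H3K9 demethylase, and *Kdm5d*, a Y-linked H3K4 demethylase, were not well above background on either array. A gene was called higher where the Z-score of its log2 ratio, against probes of similar signal, was at least 2.0 and the ratio of ALDH-positive to ALDH-negative signal at least 1.5, and lower where the Z-score was -2.0 or less and the ratio 0.75 or less. By this selection 1 member was higher, *Sirt4*, and 2 were lower, *Crebbp* and *Hdac9*. Among the 14043 measured genes of the array, 1.35% were higher and 2.08% lower, so the members' counts were near the background. The log2 ratio was above 0 in 51 of the 74 members (68.9%) and in 60.5% of all measured genes. The median log2 ratio of the members was 0.09, with quartiles of -0.03 and 0.20, beside 0.04 for all measured genes, with quartiles of -0.08 and 0.18.

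Most members lay near 0. Among genes well above background on both arrays, 1 of the 72 members had a log2 ratio beyond 0.5 in either direction (1.39%), beside 6.99% of the 13227 genes of the array that met the same condition. These sets were not matched in signal, and the spread of the ratio depends on signal. The error that the scanner software gave to each signal, carried to the log2 ratio, had a median of 0.20 over the members, and 49 of 74 members lay within their own error of 0. Of the 25 that lay beyond it, 18 had a log2 ratio above 0 and 7 below. This error describes a spot on its array, not the spread between cultures or sorts.

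**Figure D1:**
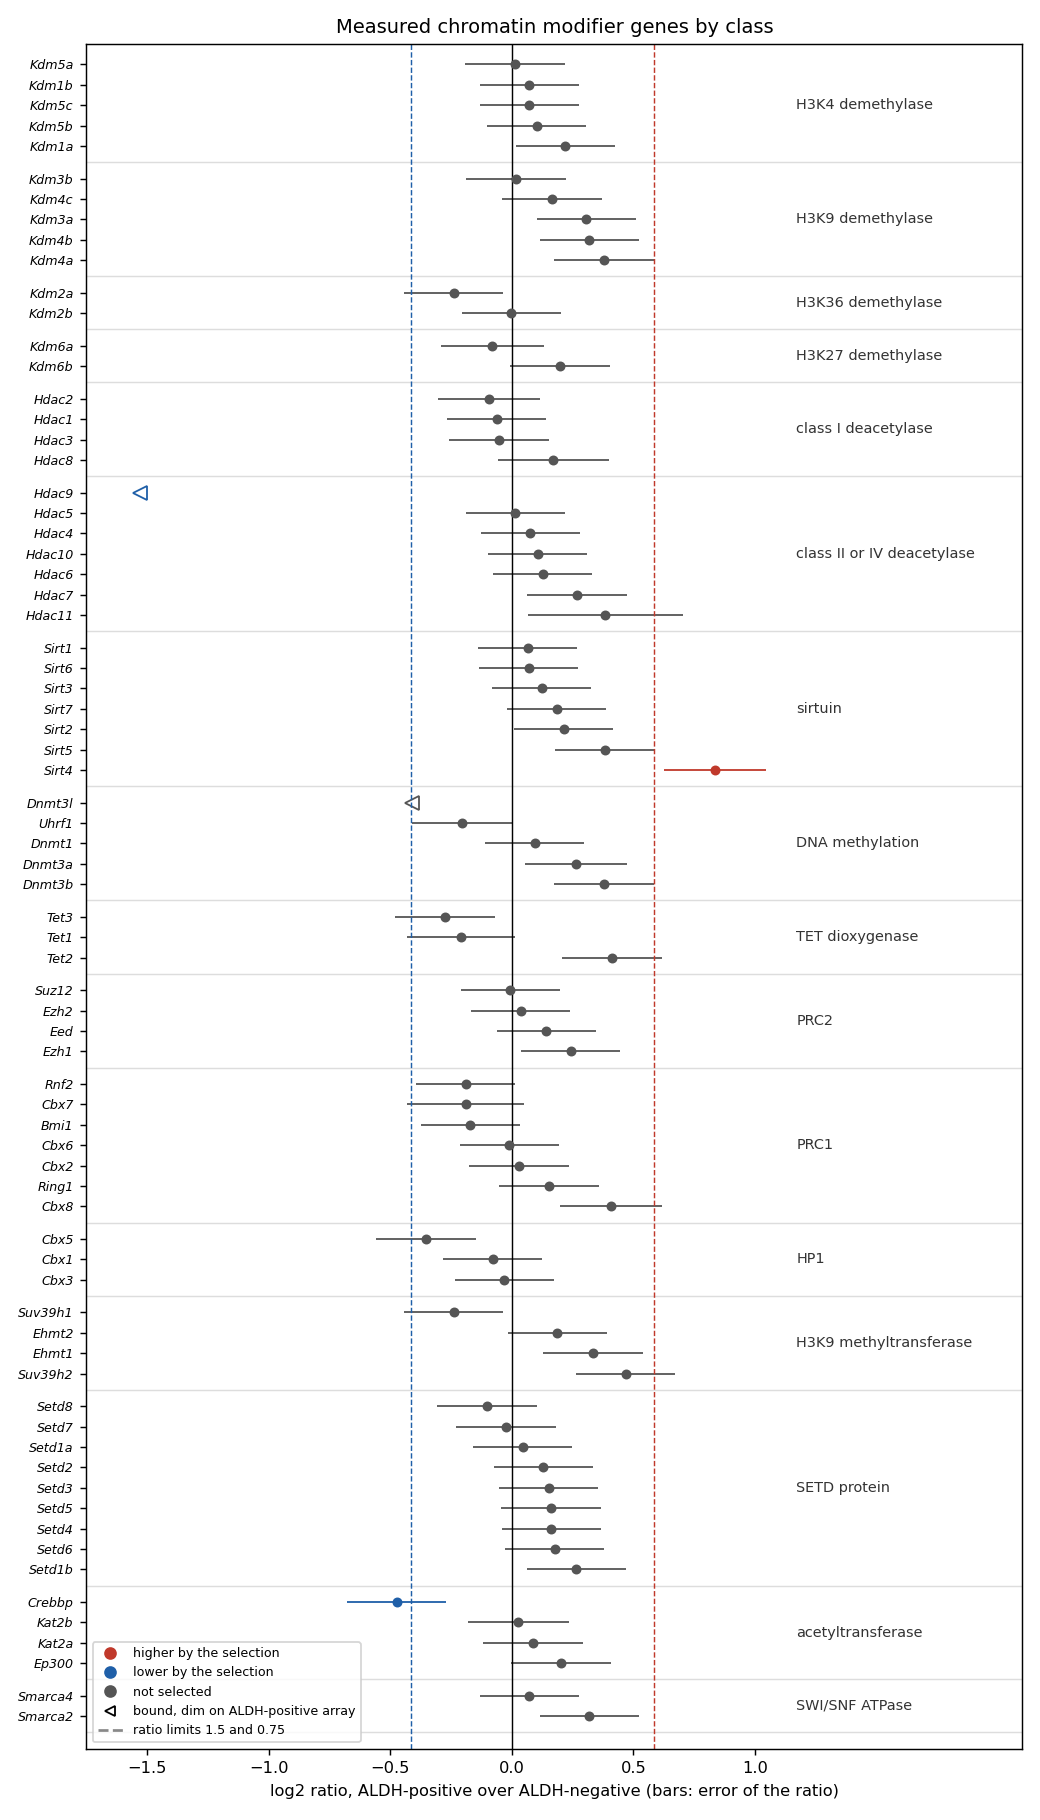
Log2 ratio of the normalized signal, ALDH-positive over ALDH-negative, of 73 of the 74 measured chromatin modifier genes, grouped by class. Points are the brightest probe of each gene, bars the error of the ratio from the scanner software, and dashed lines the ratio limits of 1.5 and 0.75. Open triangles, labelled bound, are the 2 genes not well above background on the ALDH-positive array. They are drawn against the lowest signal well above background there, which is not a strict bound. *Sirt4* lies alone beyond the upper limit, with *Crebbp* and *Hdac9* beyond the lower one.

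Before normalization the ALDH-positive array was brighter. The median log2 ratio of all measured genes was then 0.55 and that of the members 0.61, and 72 of the 74 members lay above 0. Quantile normalization brought the medians to 0.04 and 0.09. The raw log2 ratio that was set to 0 differed with the signal of a probe, for example 0.55 for *Setd2* and 0.42 for *Hdac2*. Every ratio given here is therefore relative to the array as a whole at similar signal. A negative value means a raw log2 ratio below the one set to 0 at that signal. In bulk RNA, fewer cells expressing a gene and less RNA per cell cannot be told apart. On the brightest probes *Crebbp* had a raw log2 ratio of 0.07, and *Hdac9* and *Dnmt3l* had the only raw values below 0, -3.18 and -0.23. A dimmer *Uhrf1* probe, well above background on both arrays, had a raw log2 ratio of -0.27. Shifting both arrays to their 75th percentile in place of quantile normalization moved the median of all genes to 0.09 and that of the members to 0.15. Some probes were printed near 2 edges of the array, in its last eighth by row or by column. This held for 23.9% of measured genes and 25.7% of members. There 14.8% of all genes but 0 of 19 members were beyond 0.5, again without matching for signal. The epithelial markers *Epcam*, *Cdh1*, *Krt7*, *Krt8*, *Krt18* and *Krt19* were well above background on both arrays, with log2 ratios from 0.15 to 0.54. Of 8 leukocyte markers on the array 5 were measured, with a summed signal of 10029.6 against 6323, ALDH-negative first. *Ptprc* was not well above background on either array, *Itgam* was lower (7301 and 3795, log2 ratio -0.94) and *Cd68* lay the other way (762 and 1032, 0.44, not selected). Of the endothelial markers *Kdr* was lower (-0.43) and *Pecam1* was at 0.21, not selected. Of the fibroblast markers *Postn* was higher (0.96), with low signals of 74.0 and 144 in the last eighth of the array. *Col1a1*, *Pdgfra* and *Col1a2* were at -0.70, -0.03 and -0.02, not selected, and the other markers of both lists were not measured. Their part in the ratios of the chromatin genes was not tested.

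The probes behind the 3 selected genes, and those of *Suv39h2*, which had the highest Z-score of the members that were not selected, are shown as 30 of their 60 bases, since the value of each gene rests on them. Capitals mark the longest run of a repeated 2- or 3-base unit where it reached 13 bases. Positions follow the array files (mouse assembly NCBI37), all on the minus strand, and whether they lie in coding sequence or in a UTR was not analysed here.
*Sirt4*, brightest probe, chr5:115928163-115928222: cagaagtcagtaaaccacaactgtctatga
*Sirt4*, other probe, chr5:115929657-115929716: ctggattcccgctgtggagagttgctgcct
*Crebbp*, brightest probe, chr16:4084710-4084769: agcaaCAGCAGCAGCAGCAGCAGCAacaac
*Crebbp*, other probe, chr16:4082201-4082260: ggctgctacttgatggtcttacccactcat
*Hdac9*, only probe, chr12:35056405-35056464: ggtgatctcttgttttgtgttgtaaatata
*Suv39h2*, brightest probe, chr2:3373186-3373245: gtgtgtgtcTGTGTGTGTGTGTtgcttact
*Suv39h2*, other probe, chr2:3375594-3375653: tcactgtttgcttacttgagaagtcggaat
The repeats stood out from other probes. The run in the brightest *Crebbp* probe was 20 bases of CAG units, a length reached by 159 of the 28585 measured probes (0.556%), and the TG run in the brightest *Suv39h2* probe was 13 bases, reached by 349 (1.22%), while the median over measured probes was 6. The whole *Crebbp* probe held 11 CAG triplets. In both genes the repeat-bearing probe had a log2 ratio farther from 0 than the other probe. In *Ehmt1*, whose dimmer probe also held a run of 13 bases, that probe was the nearer to 0 (-0.02 beside 0.33). The brighter *Ehmt1* probe itself held a run of 11 bases, a length reached by 2.03% of measured probes, so both probes bore repeats. The part of the repeats in these values was not tested.

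Sirtuins are NAD-dependent deacylases, of which *Sirt1*, *Sirt6* and *Sirt7* encode nuclear enzymes, *Sirt2* a mainly cytoplasmic one and *Sirt3*, *Sirt4* and *Sirt5* mitochondrial ones. All 7 were measured, 1 was higher and none was lower. *Sirt4*, known to restrain glutamine use in mitochondria, had a normalized signal of 96.7 on the ALDH-negative array, which became 173 on the other, a ratio of 1.79. Pairs of signals below follow this order, ALDH-negative first. Its log2 ratio was 0.84 ± 0.21 (scanner error) with a Z-score of 2.51. The second *Sirt4* probe, in the last eighth of the array, had 31.9 and 61.5 (log2 ratio 0.95, Z-score 1.97) and so just missed the Z-score limit. Both probes thus lay on the same side, 0.11 apart on the log2 scale. These were low signals: with normexp or no background correction the log2 ratio was 0.58 or 0.56 and the gene was not selected.

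The other sirtuins had smaller values, and their median with *Sirt4* was 0.19. *Sirt5*, the mitochondrial desuccinylase, had signals of 662 and 864 (log2 ratio 0.38, Z-score 1.62) on a probe in the last eighth of the array. *Sirt2* had signals of 1414 and 1638 (log2 ratio 0.21), and *Sirt7* had 2639 and 3001 (0.19), with its 3 probes between -0.02 and 0.19. The log2 ratios of *Sirt1*, *Sirt3* and *Sirt6* on their brightest probes were 0.07, 0.12 and 0.07 and lay within their error of 0. A dimmer *Sirt6* probe was at 0.36 ± 0.21 (scanner error). With the brightest probes all 7 log2 ratios were above 0, as were 60.5% of all measured genes, but only *Sirt4*, *Sirt5* and *Sirt2* exceeded their own error.

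**Figure D2:**
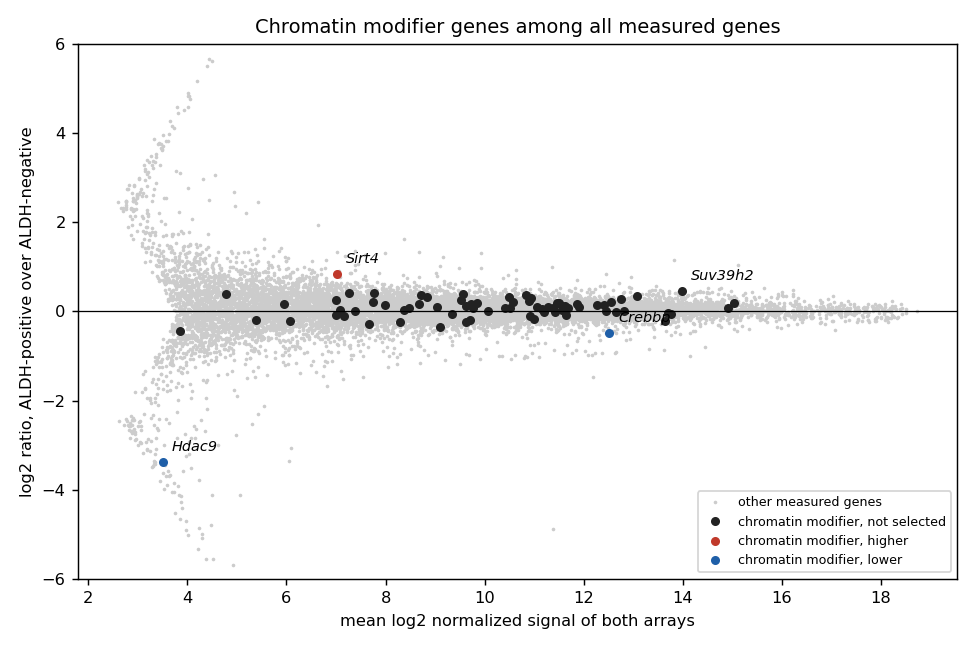
Log2 ratio of ALDH-positive over ALDH-negative signal against the mean log2 normalized signal of both arrays, for the 14043 measured genes (grey) and the 74 chromatin modifier genes (dark or coloured). *Sirt4* and *Crebbp* lie at the edge of the cloud at their signal, and *Hdac9* lies among genes detected on 1 array, where the spread is wide.

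Acetyltransferases place the mark that deacetylases remove. *Crebbp* encodes CBP, the close relative of the p300 protein encoded by *Ep300*, and both act as coactivators. *Crebbp* was lower: its normalized signals were 6875 and 4950.0, a ratio of 0.72, with a log2 ratio of -0.47 ± 0.20 (scanner error) and a Z-score of -2.40. Its other probe, with signals of 48.6 and 45.4, did not pass (log2 ratio -0.10). On the log2 scale the probes were 0.38 apart. The selection of *Crebbp* was lost with the 75th percentile shift (log2 ratio -0.39), with the median over its probes (-0.29), with the Z-score taken across the whole array and with a ratio limit of 1.5 both ways. *Ep300* had signals of 200 and 230 (log2 ratio 0.20), the log2 ratios of the SAGA acetyltransferases *Kat2a* and *Kat2b* were 0.09 and 0.03, and all 3 lay within their error of 0.

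Of the 7 class II and IV deacetylases 1 was lower and none was higher. *Hdac9*, a class IIa enzyme known from muscle and lymphoid cells, was well above background on the ALDH-negative array alone. Its normalized signals were 36.6 and 3.51. Set against the lowest signal well above background on the ALDH-positive array (12.7), it was 2.89-fold lower there. That is not a strict bound, since *Kdm4d*, at 13.3 on that array, was not well above background. The *Hdac9* value rests on 1 spot per array, and with normexp or no background correction its log2 ratio was -0.50 or -0.53. The 6 other genes of this group were above 0 and none was selected. *Hdac7*, another class IIa enzyme, had signals of 6274 and 7555 (log2 ratio 0.27, Z-score 1.55). *Hdac11*, the class IV enzyme, had low signals of 24.0 and 31.4 (0.38 ± 0.32, scanner error). *Hdac6*, the tubulin deacetylase, had 2 probes with log2 ratios of 0.13 and 0.16, and those of *Hdac4*, *Hdac5* and *Hdac10* were 0.08, 0.01 and 0.11.

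None of the 4 class I deacetylases was selected. *Hdac1* and *Hdac2* encode catalytic subunits of the NuRD, SIN3 and CoREST corepressors and *Hdac3* that of the NCoR complexes. *Hdac1* had the log2 ratios -0.25, -0.06 and -0.05 on its 3 probes, all in the last eighth of the array, and signals of 14156 and 13560.1 with the brightest. *Hdac3* had signals of 660.5 and 637 (-0.05), and *Hdac8* had 58.1 and 65.5 (0.17), with its other probe at -0.01. *Hdac2* had signals of 148 and 138 (log2 ratio -0.09). The median of the class was -0.06, or 0.0030 with the 75th percentile shift, and all 4 lay within their error of 0.

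*Hdac2* and the H3K36 methyltransferase gene *Setd2* were each printed in 10 spots per array, so the spread within an array could be seen. Before normalization the 10 *Setd2* spots ran from 2292 to 2611 (median 2509) on the ALDH-negative array and from 3779 to 4270.2 (median 3970.3) on the other, which was brighter by a median raw log2 ratio of 0.55 over all measured genes. Spot by spot, the raw log2 ratio of *Setd2* was 0.68 ± 0.09 (SD over 10 spots), from 0.60 to 0.88, with all 10 spots above 0.55, the raw value that normalization set to 0 for this probe. The 10 *Hdac2* spots ran from 109 to 153 (median 129) and from 144 to 177 (median 161), which overlapped before that brightness was allowed for. Their raw log2 ratio was 0.32 ± 0.13 (SD over 10 spots), from 0.15 to 0.49, with 3 spots above and 7 below 0.42, the raw value set to 0 for that probe. After normalization these differences were a log2 ratio of -0.09 for *Hdac2* and 0.13 for *Setd2*. Both lay within the scanner error of a single spot (0.21 and 0.20), which was not reduced for the 10 spots. Spots of 1 array share its RNA and are not replicates of the cells.

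**Figure D3:**
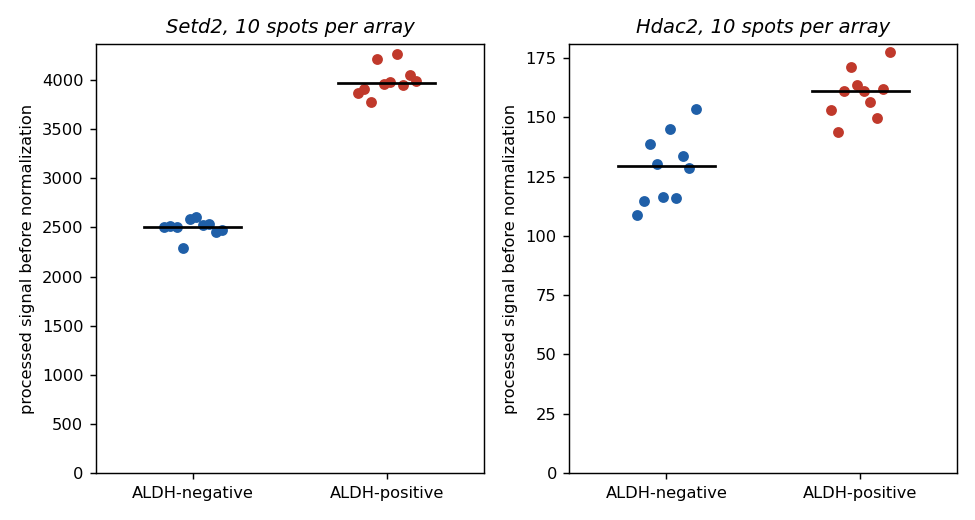
Processed signal before normalization of the 10 spots of *Setd2* and of *Hdac2* on the ALDH-negative and the ALDH-positive array, from 0, with the median as a bar. The spots run from 2292 to 2611 against 3779 to 4270.2 for *Setd2* and from 109 to 153 against 144 to 177 for *Hdac2*, on arrays that differed in raw brightness by a median log2 ratio of 0.55.

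H3K9 methyltransferases deposit the mark on which HP1 proteins settle, and the KDM3 and KDM4 enzymes remove it. None of the 5 measured H3K9 demethylases was selected. All 5 had a log2 ratio above 0, as did 60.5% of all measured genes, and the class median was 0.31. *Kdm4a* had signals of 1597 and 2076 (log2 ratio 0.38, Z-score 1.80), and its second probe had 147 and 199 (0.44). *Kdm4b* had 1284 and 1602 (0.32, Z-score 1.64). *Kdm3a*, which is known to be induced in hypoxia, had 1768 and 2185 (0.31, Z-score 1.55). All 3 exceeded their own error. *Kdm4c* had 385 and 432 (0.17), within its error, and *Kdm3b*, at 0.02 on its brightest and -0.27 on a second probe, turned below 0 with the 75th percentile shift, with either other background correction and with the median over its probes.

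Of the 4 H3K9 methyltransferases none was selected. *Suv39h2* had signals of 13685 and 18937, a ratio of 1.38, and its Z-score of 2.36 was above the limit while its ratio was not. That probe lay in the last eighth of the array, and the other *Suv39h2* probe (signals of 114 and 112) was at -0.03, so the gene rested on the TG-rich probe. *Suv39h1*, its X-linked relative, went the other way with 861 and 730 (log2 ratio -0.24). *Ehmt1* and *Ehmt2* encode the GLP and G9a enzymes, which work as a pair. *Ehmt1* had 7682 and 9685 (0.33, Z-score 1.82), with a second probe at -0.02, and *Ehmt2* had 31326 and 35679 (0.19).

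The HP1 genes *Cbx1*, *Cbx3* and *Cbx5* encode HP1 beta, gamma and alpha, the readers of methylated H3K9. None was selected, and the log2 ratios of their brightest probes were all below 0, with a median of -0.08 that turned to 0.01 with the 75th percentile shift and to 0.02 with normexp. Their probes disagreed. *Cbx5* had 620 and 485 on its brightest probe (log2 ratio -0.35) and 477 and 586 on the other (0.30), a gap of 0.65 that was the largest among the members. *Cbx1* had 3303 and 3129 on its brightest probe (-0.08), with 0.12 and 0.47 on 2 dimmer ones. Both *Cbx3* probes were below 0, at -0.03 and -0.19, but the brightest turned to 0.04 with the 75th percentile shift and to 0.02 with either other background correction. No direction could therefore be given for any of the 3 genes, and with normexp the other *Cbx5* probe was the brightest and the log2 ratio was 0.27.

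**Figure D4:**
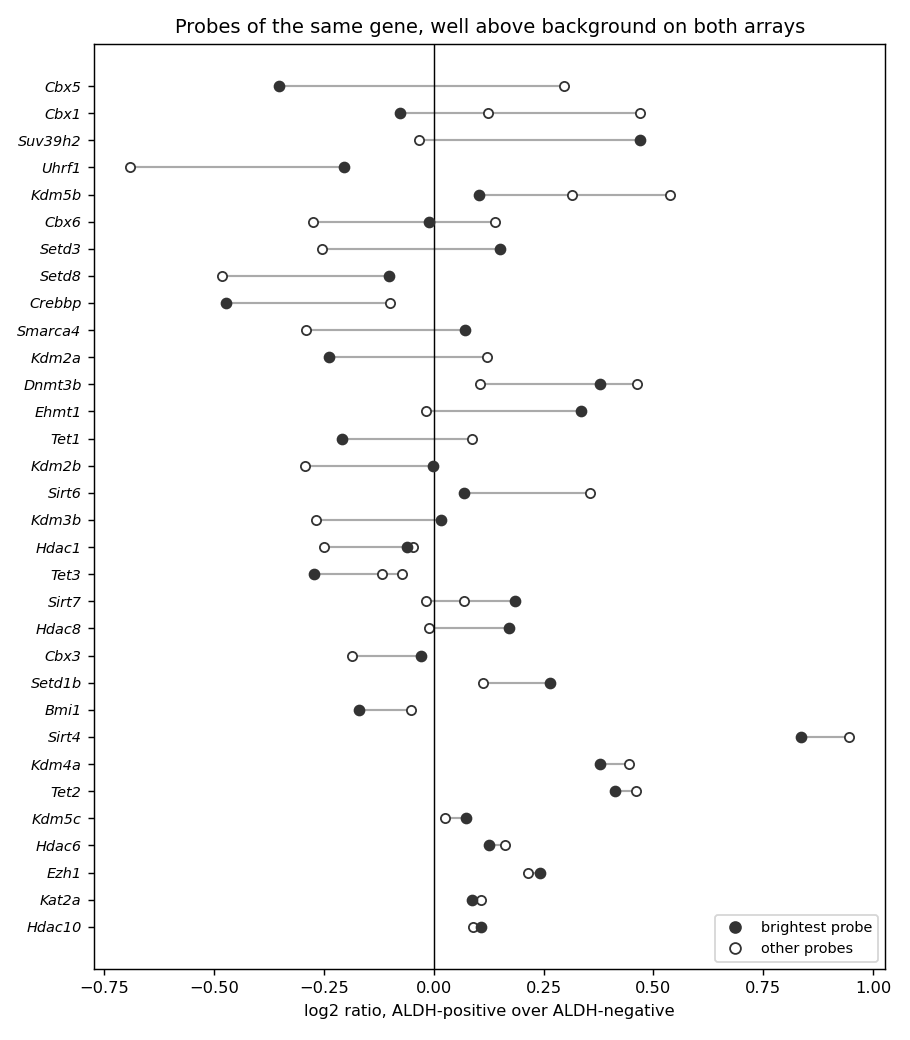
Log2 ratio of each probe that was well above background on both arrays, for the 32 chromatin modifier genes with at least 2 such probes, ordered by the gap between the lowest and the highest. Filled points are the brightest probe. The probes of 12 genes lie on both sides of 0, with the widest gap for *Cbx5* (0.65), while both *Sirt4* probes lie above 0.8.

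Across the 32 members with at least 2 probes well above background on both arrays, all probes lay on 1 side of 0 in 20 genes and on both sides in 12. The median gap between the lowest and the highest probe was 0.29 on the log2 scale. The median error of 0.20 is that of a single ratio, while a gap carries the errors of at least 2. The gap and that error are therefore not directly comparable. The gap exceeded 0.5 in 3 genes, *Cbx5*, *Cbx1* and *Suv39h2* (0.50). Genes whose probes lay close together included *Hdac10* (gap 0.02), *Kat2a* (0.02), *Ezh1* (0.03), *Tet2* (0.05) and *Kdm4a* (0.06). Beside the brightest probes, 2 dimmer ones passed the selection as lower. The *Uhrf1* probe at chr17:56451668-56452321 had signals of 180.0 and 111 (log2 ratio -0.69, Z-score -2.13, in the last eighth of the array) and the *Setd8* probe at chr5:124897355-124900704 had 590 and 422 (-0.48, Z-score -2.08). In the array files these probes were placed across 654 and 3350 bases of NCBI37, more than a probe's 60 bases, as a placement over a splice junction is, and 6 of the 123 member probes had such a split placement. Both are shown because the other probe of the gene gave a smaller difference.
*Uhrf1*, split probe: agctatacggcaacatcaggctcttgaatg
*Uhrf1*, other probe, chr17:56462770-56462829: tgtgtctcatggaaactaaaccatttacta
*Setd8*, split probe: gctggaatctacaggaagcgagaagagaaa
*Setd8*, other probe, chr5:124911883-124911942: actagggtacctggcagccggcagagaacc

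DNA methylation is copied at replication by DNMT1, which UHRF1 brings to half-methylated sites, and set anew by DNMT3A and DNMT3B with the inactive partner DNMT3L. None of the 5 genes was selected. *Uhrf1* had signals of 13706 and 11892 on its brightest probe (log2 ratio -0.20), with -0.69 on the split probe. *Dnmt1* had 2074 and 2213 (0.09), within its error. *Dnmt3b* had 368 and 479 (0.38, Z-score 1.53), and its 3 probes were all above 0, at 0.11, 0.38 and 0.46. *Dnmt3a* had 117 and 140.3 (0.26) in the last eighth of the array. *Dnmt3l* was well above background on the ALDH-negative array alone, with signals of 16.9 and 12.4. Set against the lowest signal well above background on the ALDH-positive array, it was 1.33-fold lower there, again not a strict bound. Its log2 ratio was within its error (-0.44 ± 0.46, scanner error). With normexp it was -0.04 and without background correction -0.09.

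The TET dioxygenases, which oxidize methylcytosine, had low signals and lay on both sides of 0. *Tet2* had 188 and 250.2 (log2 ratio 0.41, Z-score 1.48) and its other probe well above background on both arrays had 49.3 and 67.8 (0.46). Another *Tet2* probe was well above background on the ALDH-positive array alone. *Tet3* had 224 and 185 (-0.27), and its 3 probes were all below 0. *Tet1* had 72.3 and 62.5 (-0.21), while a second probe was at 0.09. None was selected, and the median of the class was -0.21.

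The demethylases of the other lysines were near 0. The H3K4 demethylases act with corepressors at promoters and enhancers. All 5 measured genes had log2 ratios above 0, as did 60.5% of all measured genes, and the class median was 0.07. *Kdm1a*, which encodes LSD1, had the largest, with signals of 5560.3 and 6478 (0.22, in the last eighth of the array). *Kdm5b* had 2386 and 2562 (0.10) with its brightest probe, with 0.32 and 0.54 on 2 dimmer ones, and *Kdm5c* and *Kdm1b* both had 0.07. *Kdm2a*, an H3K36 demethylase, had signals of 343 and 290.3 (-0.24), but 0.12 on its other probe. *Kdm2b* had 5598 and 5590.3 (-0.0021), with -0.29 on its other probe well above background on both arrays. The H3K27 demethylases *Kdm6a*, on the X chromosome, and *Kdm6b* had log2 ratios of -0.08 and 0.20, with signals of 131 and 124 and of 864 and 992. None of these genes was selected.

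None of the 12 Polycomb members was selected. PRC2 places methyl groups on H3K27 through EZH2 or EZH1 with EED and SUZ12, and PRC1 binds the mark through CBX proteins and ubiquitinates H2A through RING1 and RNF2. *Ezh2* had signals of 2963 and 3040.5 (log2 ratio 0.04), *Suz12* 2366 and 2357 (-0.0055) and *Eed* 4668 and 5152 (0.14), all within their error. *Ezh1* had 1749 and 2068 (0.24), and a second probe gave 0.21, both in the last eighth of the array. In PRC1, 4 of 8 genes were above 0 and the median was 0.01, or -0.01 with normexp. *Cbx8* had the largest value, with signals of 133 and 176 (0.41, Z-score 1.18). *Bmi1*, often named among self-renewal genes, had 2152 and 1911 (-0.17) with a second probe at -0.05, *Rnf2* had 893 and 783 (-0.19), and *Cbx7* had 44.3 and 38.9 (-0.19). *Cbx2*, *Cbx6* and *Ring1* lay between -0.01 and 0.15.

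The SETD proteins share a SET domain but not a substrate: *Setd1a* and *Setd1b* act on H3K4, *Setd2* on H3K36 and *Setd8*, now named *Kmt5a*, on histone H4, while *Setd3* is known to methylate actin and *Setd6* acts on non-histone proteins. None of the 9 was selected, 7 were above 0 and the median was 0.15. *Setd1b* had signals of 673 and 809 (log2 ratio 0.27) with a second probe at 0.11. *Setd6* had 2736 and 3093 (0.18), *Setd4* 796 and 892 (0.16) and *Setd5* 3522 and 3938 (0.16). *Setd8* was at -0.10 on its brightest probe. The log2 ratios of the SWI/SNF ATPases, which move nucleosomes, were 0.32 for *Smarca2* (signals of 410.4 and 512) and 0.07 for *Smarca4* (29922.5 and 31456.5), both in the last eighth of the array. The other *Smarca4* probe, outside that area, was at -0.29.

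Other chromatin genes, outside the set, were read in the same way. Of 145 on the array, 141 were measured, 0 were higher and 0 were lower, 91 were above 0 and the median log2 ratio was 0.07. Over all measured genes 1.35% were higher, 2.08% lower and 60.5% above 0. The medians of the lists ran from -0.03 for the CHD and ISWI remodellers to 0.14 for the methyl-DNA binders and repair genes. The partners of the deacetylases in NuRD, CoREST and SIN3 had a median of 0.04 over 22 genes, further Polycomb subunits 0.07 over 18 and SWI/SNF subunits 0.11 over 17. The MLL and NSD methyltransferases had 0.02 over 22 genes, arginine methyltransferases 0.08 over 8, further acetyltransferases 0.05 over 12 and BET and related readers 0.12 over 15. Among 22 proliferation genes, with which *Uhrf1*, *Dnmt1* and *Ezh2* are often expressed, 13 were above 0 and the median was 0.20, with none selected. The replication genes *Mcm2* to *Mcm7*, *Pcna*, *Rrm2* and *Tyms* lay between -0.21 and -0.03, and the mitotic genes such as *Cdk1* (0.58), *Aurka* (0.49), *Plk1* (0.45) and *Mki67* (0.29) above 0.

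The study centred on CLOCK, a circadian transcription factor that binds the E-box CACGTG. Promoters of 250 bases before to 50 after the start were in the RefSeq table (GRCm38.p6) for 65 of the 76 members. The letters CACGTG, which read the same on both strands, stood in 11 of these (16.9%), beside 8.09% of all 27025 genes in the table and 11.2% of the 9907 measured genes with a promoter there. *Sirt4*, *Crebbp* and *Hdac9* were not among the 11. The measured members with the letters had a median log2 ratio of 0.01, from -0.44 to 0.41, and the 52 without them 0.11. The low end was *Dnmt3l*, which was well above background on the ALDH-negative array alone and lay within its error of 0. *Sirt1*, whose product deacetylates clock proteins, *Cbx8*, *Cbx5* and *Bmi1* are shown with 30 bases around the match, the first of 2 in the *Sirt1* promoter, with the E-box in capitals and positions on GRCm38.p6.
*Sirt1*, minus strand, chr10:63339133-63339162: gcggcgcccggcCACGTGacccggcgtgtt
*Cbx8*, minus strand, chr11:119040994-119041023: cgtcgttagcaaCACGTGgggcgggaggaa
*Cbx5*, minus strand, chr15:103239971-103240000: tgctgcctggaaCACGTGaaatggcgggcg
*Bmi1*, plus strand, chr2:18676791-18676820: gaatgaggggagCACGTGacccggcggggg
The log2 ratios of these genes on their brightest probes were 0.07, 0.41, -0.35 and -0.17. The other *Cbx5* probe was at 0.30, so no direction could be given for that gene. The other members with a match were *Cbx6*, *Dnmt3a*, *Dnmt3l*, *Ehmt2*, *Hdac5*, *Kdm4c* and *Kdm6a*. A match is a description of the sequence and not of binding.

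**Figure D5:**
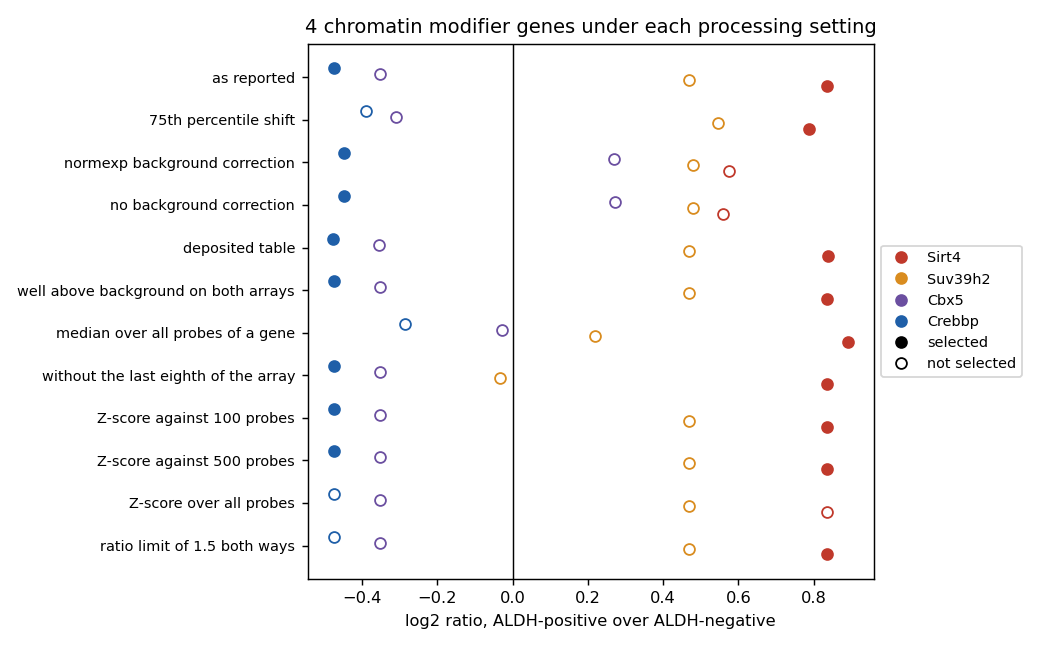
Log2 ratio of *Sirt4*, *Suv39h2*, *Cbx5* and *Crebbp* as reported and under each of the 11 alternative settings, with filled points where the gene was selected. *Sirt4* stays above 0.5 and *Crebbp* below -0.2 in all of them, while *Cbx5* and *Suv39h2* cross 0 where another of their probes is used. Settings that change only the Z-score or the ratio limit repeat the same log2 ratio.

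The plot by setting shows which of these values depended on how the signals were handled. *Sirt4* was selected in 8 of the 11 alternatives and *Crebbp* in 7, and *Hdac9* in all 10 that kept it. These counts include alternatives that could not change a call, so they overstate how firm the selections were. The brightest *Sirt4* and *Crebbp* probes were well above background on both arrays and outside the last eighth. The changed ratio limit left the rule for higher genes as it was. The median over probes repeated the only *Hdac9* probe. The deposited table was also quantile-normalized. The log2 ratio of *Sirt4* ran from 0.56 to 0.89 and that of *Crebbp* from -0.48 to -0.29.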

How the data were processed

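The arrays were Agilent SurePrint G3 mouse arrays, read by the authors with Feature Extraction (version 9.5.1.1 in their notes, 10.7.1.1 in the file headers). The deposited scanner files hold processed signals as linear intensity, with background already subtracted, and the deposited series table holds the signals that the authors quantile-normalized as log2 values, written back as linear intensity. Here control and outlier spots were left out, spots of a probe were averaged on the log2 scale with signals under 1 set to 1, and the 55681 probes were quantile-normalized over both arrays, as the methods describe (Python 3.11.15, numpy 2.4.6, pandas 2.3.3; normexp in limma 3.58.1). Well above background were 26986 probes (ALDH-negative) and 27503 probes (ALDH-positive), and the precision is limited by the single array of each population. The Z-score, which the methods do not define, was taken against the 250 probes next below and the 250 next above in mean log2 signal. The limits were those of the methods.

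A gene was measured where a probe was well above background on at least 1 array, and its brightest measured probe stood for it. Where a gene was not well above background on 1 array, the fold was given against the lowest signal well above background on that array, which is not a strict bound. Genes were named as on the array. The values of 1 member are not reported here, though it stayed in counts and medians. The text names every selected member, the 4 members of each class farthest from 0, members detected on 1 array and those whose probes differed by over 0.5, and others as they were needed for a class, chosen after their values were seen. The members, classes and lists were chosen with earlier results of these data known. The calculation was tested on simulated data. Promoter sequences came from RefSeq (GRCm38.p6).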

Additional observations from a re-analysis of the deposited data

How the results depend on the processing

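No paired analysis was possible because the populations had 1 array each. Of 553 values computed under the alternatives, 532 moved by less than their error or, for counts, stayed within 1.5 times. Some of these could not move, such as the median over probes for genes with only 1 probe. The number of members higher was 0 with normexp, without background correction and where the Z-score used all probes at once. The number of members lower was 1 with the 75th percentile shift, with only genes well above background on both arrays, with the median over the probes of a gene, with that Z-score and with a ratio limit of 1.5 both ways. Among other chromatin genes, a count added after the data were seen, 1 was lower with 500 neighbours on each side for the Z-score in place of 250. With normexp the log2 ratio was 0.27 for *Cbx5*, -0.50 for *Hdac9* and 0.58 for *Sirt4*, and without background correction 0.27, -0.53 and 0.56. With the median over probes it was -0.028 for *Cbx5*, 0.22 for *Suv39h2* and -0.45 for *Uhrf1*. Without the last eighth of the array it was -0.29 for *Smarca4*, which then stood alone for the SWI/SNF ATPases (class median -0.29), and -0.033 for *Suv39h2*. For *Cbx5* with normexp, *Suv39h2* and *Smarca4* another probe was used, and the cause of the other shifts was not tested. The sign of the log2 ratio turned under at least 1 alternative in 15 of the 74 members, none of them selected. Low signal over background limits *Hdac9*, *Dnmt3l* and *Hdac11* among others, and the absence of replicate arrays limits every value.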
